A study of Schizosaccharomyces pombe with 2 samples.

Results

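Fission yeast (Schizosaccharomyces pombe) has 3 chromosomes, and the right arm of chromosome I (1808 kb) and the left arm of chromosome II (1622 kb) are the shorter arms of the 2 largest. The interiors of these 2 arms were described here as 10 kb bins of a Hi-C contact map, which counts how often fixed pieces of DNA were joined, and each bin is called by the coordinate of its start. Bins 4100001 to 5180001 of I (109 bins) and 370001 to 1290001 of II (92 of 93 bins) were taken, which made 201 of the 1218 bins with values in the map. The blank bin, 520001 of II, holds 0 sites for HindIII, the enzyme used. The members lie 334 to 1414 kb from centromere I and 327 to 1247 kb from centromere II, and none is nearer than 375 kb to a chromosome end. They hold 464 protein-coding genes on I and 381 on II.

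All cells carried the sap1-1 mutation; Sap1 is a DNA-binding protein that the cells need to live. Growing cultures in the rich medium YEA went from 26 °C to 33 °C for 6 h and were fixed with 3% formaldehyde for 20 min at 26 °C. The labels give 2 libraries of this strain, numbered R1 and R2, with no word on whether they came from separate cultures and no other strain or growth temperature. The values form 1 map whose header carries the tag R1. No value here is therefore a difference between strains, no replicate error exists, and each SD is a spread over bins.

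In interphase fission yeast the centromeres cluster at the spindle pole body and the chromosome ends gather at the nuclear envelope, so that arms lie side by side from their centromeres outward. Loci at like distances from their centromeres can then meet across chromosomes, and arms of like length can run beside each other along more of their course. Within arms, cohesin-bound places where transcripts run toward each other are known to border local domains of contact.

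The map held 37526864 recovered reads, with a median of 58295 per bin on the right arm of I (12760 to 89416) and 60206 on the left arm of II (18873 to 98119). A pair of bins between the 2 arms had a median of 13 reads (0 to 40). Intervals are exact Poisson or binomial intervals at 95% on recovered reads. They cover counting error only and leave out the spread between cultures and the unequal weight of reads after correction.

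Sequences at domain boundaries described below are shown first, because tRNA genes and a short gap between facing transcripts are among the named elements there. The 4 tRNA genes that lie in boundary bins read as follows in the direction of transcription, with the core of the internal promoter's B box (GTTCNA, N for any base) in capitals. They are the tRNA-Ser gene at chrII:744754-744835 (minus strand), the tRNA-Lys gene at chrII:602625-602699 (minus), the tRNA-Arg gene at chrII:1160893-1160994 (minus) and the tRNA-Thr gene at chrI:4715431-4715502 (plus). Sequences and coordinates were read from the RefSeq genome ASM294v3, whose 3 chromosomes have the lengths of the map's build, ASM294v2. The core is found on the transcribed strand of 91.2% of the 171 annotated tRNA genes.
SPBTRNASER.05: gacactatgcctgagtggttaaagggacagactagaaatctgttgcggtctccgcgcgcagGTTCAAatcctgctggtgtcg
SPBTRNALYS.06: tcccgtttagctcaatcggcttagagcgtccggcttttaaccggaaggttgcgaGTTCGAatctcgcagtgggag
SPBTRNAARG.05: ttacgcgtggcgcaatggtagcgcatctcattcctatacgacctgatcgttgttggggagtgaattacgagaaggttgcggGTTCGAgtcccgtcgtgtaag
SPATRNATHR.05: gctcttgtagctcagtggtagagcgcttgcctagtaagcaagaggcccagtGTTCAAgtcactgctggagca

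The next sequence is the stretch between the 3′ ends of win1 and rpl3002, the facing genes at one of the deepest boundaries (chrI:5094849-5095072, 224 bases, plus strand). The polyadenylation motif AATAAA was searched on both strands and would stand in capitals. It is not in this window, and 86 of the 215 gaps of 60 to 300 bases hold it. An annotated noncoding RNA (SPNCRNA.4300) overlaps the gap. Its A and T content was 69.2%, against 70.9% ± 3.45 over those gaps (SD, n = 215).
win1 to rpl3002: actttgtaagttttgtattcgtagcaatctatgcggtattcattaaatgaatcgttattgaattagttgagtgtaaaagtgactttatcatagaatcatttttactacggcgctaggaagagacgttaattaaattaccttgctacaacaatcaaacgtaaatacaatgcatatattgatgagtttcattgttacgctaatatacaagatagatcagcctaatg

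Over their whole interiors, the 2 short arms met each other about as often as arms of different chromosomes did on average. The comparison was made at like distances from the centromeres. Mean corrected contact per bin pair was 12.96 (133043 reads over 10028 pairs), and the means of single bins of I ran from 9.09 to 15.9 (median 13.05, SD 1.25). The expectation for each pair was the mean of all inter-chromosomal pairs of arm bins whose centromere distances fell in the same classes of 100 kb. Contact between the short arms was 0.990 times that expectation (0.985 to 0.996), and 1.01 times with the reads used without the correction. The 2 settings therefore lie on opposite sides of 1.

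Against the longer arms at the same distances from the centromere, contact between the short arms lay between that of the other pairings. The right arm of I met the right arm of II (2917 kb) with a mean of 13.57, which was 1.04 times expectation (1.03 to 1.04). The left arm of II met the left arm of I (3771 kb) with a mean of 12.50, or 0.955 times expectation (0.950 to 0.960). The 2 longer arms met each other at 1.04 times (1.04 to 1.05). Matched class by class, contact between the short arms was 0.956 times that of the right arms of I and II (0.949 to 0.963) and 1.04 times that of the left arms of I and II (1.03 to 1.04). Without the correction these ratios were 1.00 and 1.01. At the same distances from the chromosome end instead, the right arm of I met the right arm of II at 1.06 times expectation (1.05 to 1.07), and the left arm of II met the left arm of I at 1.03 times (1.03 to 1.04).

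The order changed along the arms. Near the centromeres the short arms met each other less than they met the longer arms, and toward their ends they met each other more than the left arms of I and II did. With both bins 300 to 600 kb from the centromere, mean contact was 15.3 between the short arms, 16.8 between the right arms and 16.2 between the left arms. The ratios were 0.910 (0.887 to 0.933) to the right arms and 0.945 (0.922 to 0.968) to the left arms. Without the correction the first became 1.03, which turns its direction, and the second stayed at 0.953.

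With both bins 1000 to 1300 kb out, the short arms had a mean of 13.5, the right arms 13.1 and the left arms 11.4. The ratio to the left arms was 1.18 (1.15 to 1.22) and 1.08 without the correction, and the ratio to the right arms was 1.03, with an interval of 0.999 to 1.06 that holds 1. In the outermost class, 1200 to 1300 kb, the ratios were 1.15 (1.03 to 1.28) to the right arms and 1.30 (1.16 to 1.45) to the left. There the bins lay on average 559 kb from the end of I and 395 kb from the end of II. Of the 10 classes, the interval of the ratio to the left arms lay above 1 in 4 and below 1 in 2, and that of the ratio to the right arms above 1 in 1 and below 1 in 2.

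**Figure D1:**
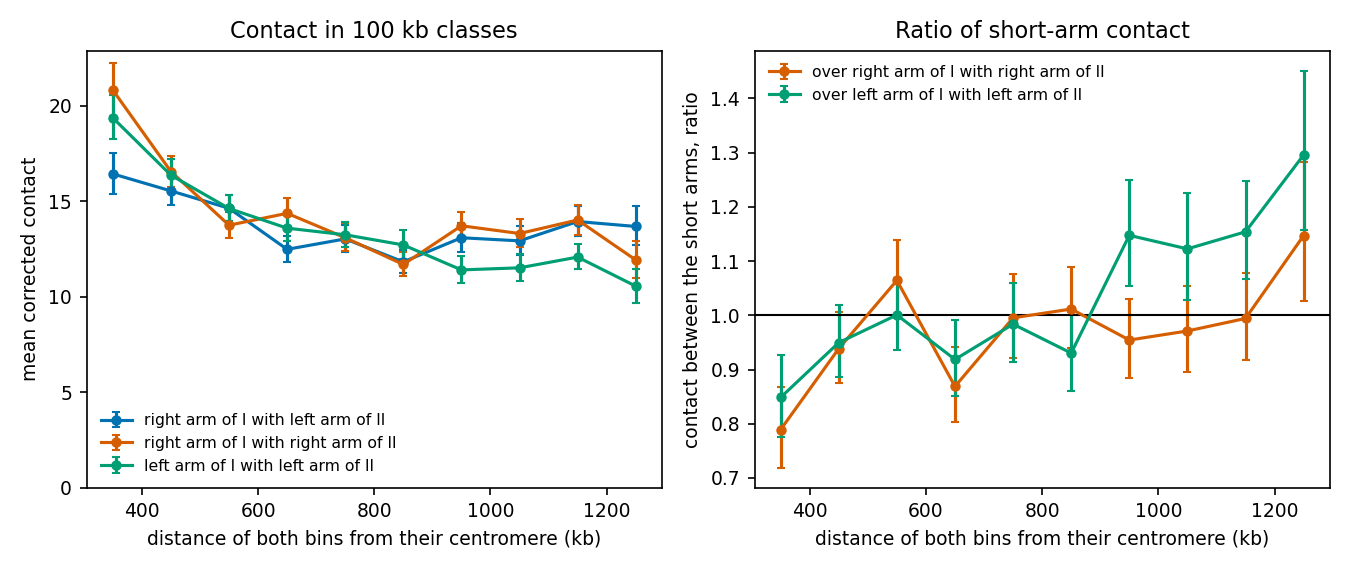
Mean corrected contact (left) and the ratio of contact between the short arms to contact with a longer arm (right), for pairs of bins in the same 100 kb class of distance from their centromeres. Points are class means or ratios and bars 95% counting intervals; short-arm contact falls least with distance, from 16.4 in the class nearest the centromere to 13.7 in the outermost, and both ratios end above 1, at 1.15 and 1.30.

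Bins of the short arms at like distances from their centromeres met more than bins at unlike distances. Mean contact was 13.6 where the distances differed by under 100 kb (25169 reads, 13.5 to 13.8) and 10.9 where they differed by 900 to 1000 kb (1633 reads, 10.4 to 11.4). The nearest class thus had 1.25 times the contact of the farthest. For the same windows the factor was 1.21 between the right arms, 1.37 between the left arms and 1.56 between the 2 longer arms. Over the 10028 pairs the rank correlation of contact with the difference in distance was -0.15, as a description of pairs that share bins.

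Both arms also met the short arms of chromosome III, and there they differed. The left arm of II met the left arm of III at 1.13 times expectation (1.12 to 1.13) and the right arm of III at 1.08 (1.08 to 1.09). The right arm of I met them at 0.938 (0.932 to 0.944) and 0.903 (0.898 to 0.908). Contact with the other arm of the same chromosome, at the same distances, was 1.55 times the expectation between chromosomes for the right arm of I and 1.45 for the left arm of II.

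Most contact stayed within the arm. Of the signal of a bin, leaving out the diagonal, 73.1% ± 2.04 fell within the right arm of I (SD, n = 109 bins) and 72.3% ± 1.91 within the left arm of II (SD, n = 92 bins). The other arm of the same chromosome took 11.5% and 9.27%, and the other chromosomes 15.4% and 18.4%. Contact fell with separation at the same rate in both, with a decay exponent (the slope of log10 contact on log10 separation, 20 to 1000 kb) of -1.24 on each. In the windows of the longer arms at the same distances it was -1.31 on the left arm of I and -1.33 on the right arm of II. Over the interiors of the 6 arms it was -1.28 ± 0.0387 (SD). Contact thus fell less steeply on the short arms than in those windows, by more than that SD. Over all arm bins this did not hold for the right arm of I, with -1.27 against -1.26 on each longer arm. The left arm of II had -1.23 there. The windows were fitted over 20 to 1000 kb only. On II, separations with 5 or more pairs ended at 880 kb for the members and for the window, so those 2 fits ended there.

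**Figure D2:**
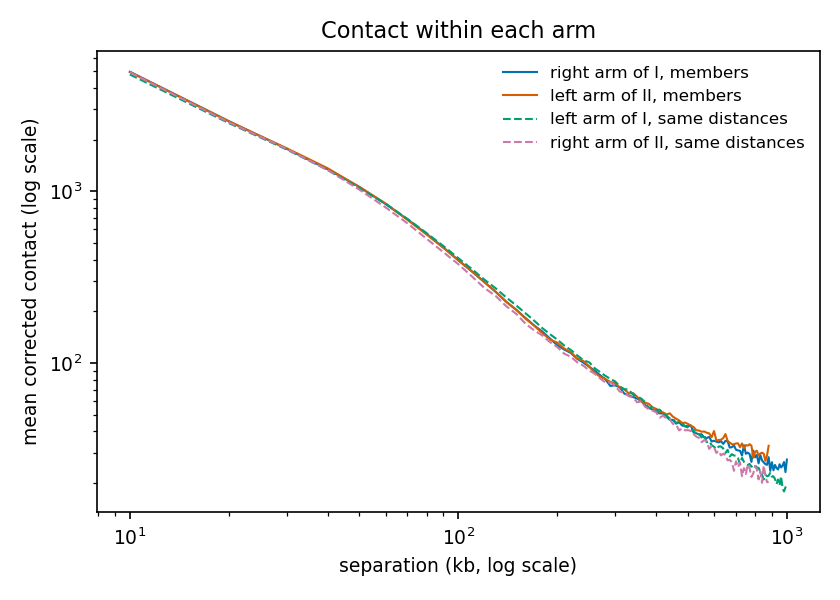
Mean corrected contact within each arm against separation, both on log scales; solid lines are the short-arm members and dashed lines the longer arms at the same distances from the centromere. The 4 lines run close together up to about 300 kb, and from 600 kb on the short arms lie above the longer ones, with exponents of -1.24 against -1.31 and -1.33.

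One stretch of the right arm of I met the ends of chromosome II more than the rest of that arm did, and more than the left arm of II met the ends of I. Bins 4500001 to 4640001 (15 bins, 150 kb) lie 734 to 874 kb from centromere I and 934 to 1074 kb from the right end, about midway along the arm. The stretch was picked after its values were seen, so these values are a description. Its contact with the 2 ends of chromosome II, as a fold over the mean between chromosomes, was at least 2 in 14 of 15 bins. End windows were the outermost 5 bins with values of each arm. No other member on I reached 2 (median 0.579, highest 1.94 in the adjoining bin 4490001), and none of the 92 members on II did with the ends of I, the other chromosome for them (median 0.686, highest 1.76 at 370001). Of the 1068 arm bins of the map, 5.71% reached 2 with the ends of the other chromosome of the pair, or of both for chromosome III. Such bins were not particular to the short arms. At the same distances from the centromere, the right arm of II had 12 of 93 bins at 2 or more (12.9%, highest 10.5), against 12.8% of the members on I, and the left arm of I had 4 of 108. With the end of their own arm, members on II reached 9.42 at 370001, above any bin of the stretch.

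The stretch had 2 peaks. The first was bin 4510001, which holds mei2, the RNA-binding regulator that starts meiosis, and omt2, a pterin dehydratase gene. It met the left end of I at 6.96 times the mean (336 reads), the right end of I at 4.72 (231), the left end of II at 5.24 (190) and the right end of II at 4.43 (186). Over the ends of II together its fold was 4.83 (4.35 to 5.34), the highest of the arm. Bin 4580001 was the highest instead without the correction (3.42) and with the outermost 2 bins as end windows (4.65).

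The second peak covered bins 4570001 to 4590001, with folds of 3.91 (3.50 to 4.36), 4.17 (3.78 to 4.58) and 3.94 (3.50 to 4.42). These bins hold sdg1 and bun62, emi5 (a succinate dehydrogenase subunit) and acp1 (an actin capping protein), and rhp41 (DNA repair) and gid8 (a ubiquitin ligase subunit). The lowest fold lay between the peaks, in bin 4550001 (nbp35, an iron-sulfur cluster assembly gene, and rex1), with 1.64 (1.40 to 1.91). The lowest of the 14 bins above 2 was its neighbour 4540001 (ypp1 and vma2, a vacuolar ATPase subunit), with 2.19 (1.91 to 2.51). Bin 4530001 holds ssm4, a dynactin gene that is active in meiosis, and had 2.47 (2.11 to 2.87). Bins 4620001 and 4630001 hold dhc1, the dynein heavy chain of meiotic nuclear movement, with folds of 2.52 and 2.59. The whole stretch has 58 protein-coding genes, and these were named for their place near the middle of a bin or in the meiotic list. Meiotic genes outside the stretch had folds below 2. Every member outside it did, given how the stretch was picked, so this is no comparison. The bins of num1 on II, also on that list, had 0.856 and 1.34 with the ends of I. On I, the bins of rec24 (meiotic recombination) and dli1 (a meiotic dynein chain) had 0.598 and 1.36 with the ends of II. A link between meiotic genes and ends was not tested.

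All 4 ends took part. Over the 15 bins the fold was 4.35 with the left end of I (4.20 to 4.50), 3.77 with the right end of I (3.64 to 3.90), 3.76 with the left end of II (3.60 to 3.92) and 2.38 with the right end of II (2.27 to 2.49). The 15 bins next toward the centromere had 1.03, 1.20, 0.902 and 0.679, and the 15 bins next toward the end 1.61, 2.21, 1.31 and 0.846. The right end of I is on the same arm, and the stretch met it more than the 15 bins next to it on that side did, though the outermost member, 5180001, had 4.30. Fold without the correction was 3.58, 3.33, 2.31 and 1.82 for the stretch and 0.470 to 0.924 for the bins toward the centromere, and 7 in place of 14 bins then reached 2 with the ends of II.

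The windows next to the ends of III were not met in this way (0.700, 0.660 to 0.743), nor were centromere II (0.538, 0.497 to 0.582) or the members on the left arm of II (0.977, 0.963 to 0.991). Reads per bin in the stretch (median 62195) were near the arm's median. The end windows had fewer, with medians of 48477 and 39322 at the left and right ends of I and 21712 and 29564 at those of II. Of the 30-base sequences of the stretch, 0.00334% recur in the end windows, against 0.0704% for the rest of the members on I. The stretch holds 11 copies of the telomere repeat unit GGTTACA on either strand and 0 pairs of them within 100 bases. The members hold 95 copies on I and 62 on II, with 0 and 1 such pairs.

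**Figure D3:**
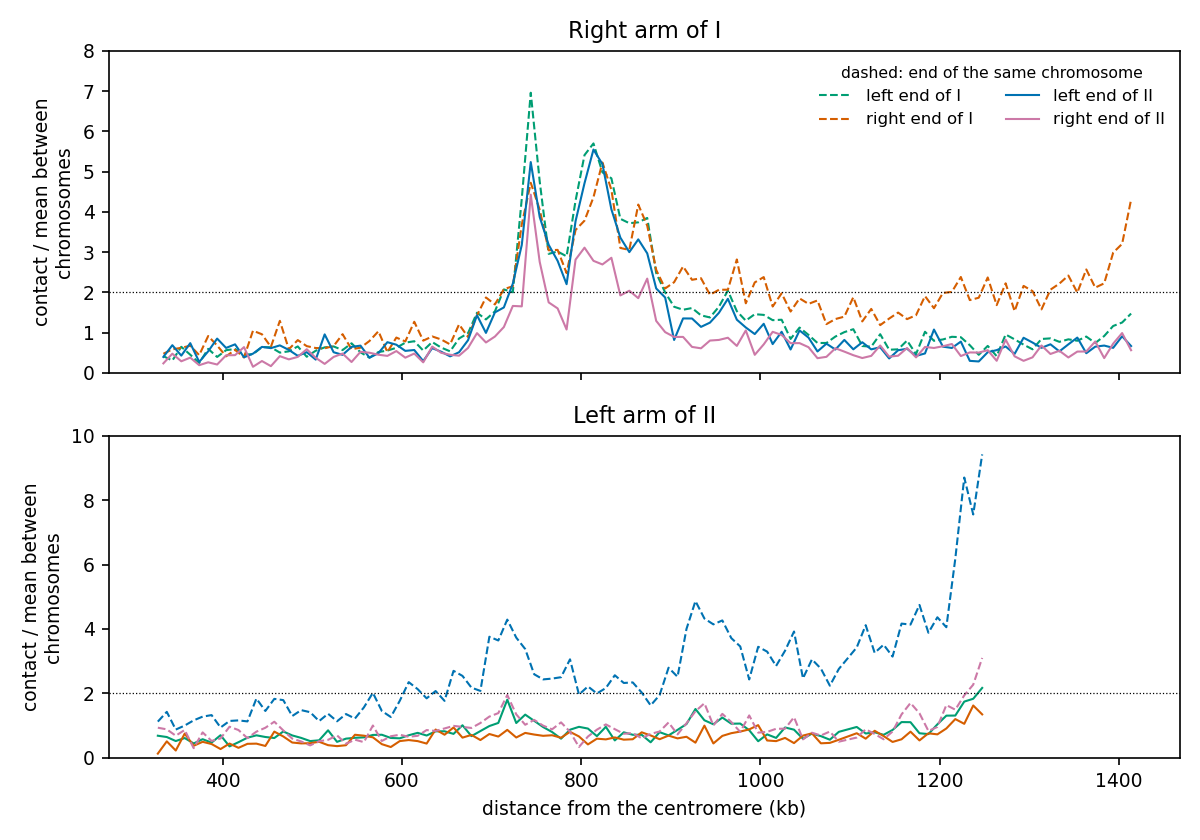
Contact of each member bin with the 4 ends of chromosomes I and II, as a fold over the mean between chromosomes, against distance from the centromere; dashed lines are ends of the same chromosome, the dotted line marks 2, and the 2 panels have different scales. On the right arm of I all 4 lines rise together between 734 and 874 kb, with peaks near 744 and 814 kb, and on the left arm of II the line of its own end is the one that stays above 2 over long stretches.

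Outside the stretch, contact with the centromere and the ends of the other chromosome differed between inner and outer members. On the right arm of I, contact with centromere II was 0.977 times the mean in members under 600 kb from their own centromere (0.937 to 1.02) and 0.513 in those beyond 1000 kb (0.489 to 0.539). On the left arm of II, contact with centromere I was 0.640 (0.607 to 0.674) and 0.474 (0.443 to 0.508), while contact with the left end of I was 0.612 (0.573 to 0.654) and 0.990 (0.934 to 1.05). Outer members thus met the other centromere less than inner ones did on both arms, and both ends of the other chromosome more. With the right end of I, the left arm of II had 0.465 in inner and 0.749 in outer members. The right arm of I had 0.573 and 0.670 with the left end of II, and 0.374 and 0.569 with the right end. On the left arm of II the rise with the left end of I was not even along the arm. Members between 600 and 1000 kb had 0.909 with the left end of I, and bin 900001, at 717 kb, had 1.80. Of the outer members, bins 370001 to 410001 had 1.31 to 2.17, and bins 420001 to 610001 had 0.563 to 1.11.

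Contact of the stretch reached inward from the ends. The stretch met bins of II within 100 kb of the left end at 3.70 times the mean (3.57 to 3.82), those at 100 to 200 kb at 2.65 (2.57 to 2.73), those at 200 to 300 kb at 1.39 (1.34 to 1.44) and those at 400 to 500 kb at 0.962 (0.920 to 1.01). On the right end of II the first classes had 2.30 and 1.33 and the class at 200 to 300 kb 0.873. The rest of the members on I had 0.758 and 0.590 within 100 kb of the left and right ends of II. The stretch also met the 3 bins around hsp16, a small heat shock protein gene on II (bins 2650001 to 2670001), at 2.06 times (1.95 to 2.19, 1178 reads), against 1.11 and 1.14 for the bins on either side of it. With the mating-type bins of II it had 0.929 (0.877 to 0.984).

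Within the arm, the bins on the 2 sides of the stretch met each other more than bins at the same separation elsewhere on the arm. The 225 pairs joining the 15 bins on one side to the 15 on the other had 1.19 times the arm's mean at their separation (1.17 to 1.20, 20567 reads), and 75.1% of them lay above 1, against 46.4% of all 5460 pairs of the arm at 50 kb or more. Those 225 pairs lay 160 to 440 kb apart, and the 5460 pairs 50 to 1080 kb. The stretch itself met its centromere side at 0.926 (0.920 to 0.933) and its end side at 1.06 (1.06 to 1.07). Of the pairs of the stretch, 31.1% lay above 1 with its centromere side, 80.4% with its end side and 70.3% within it. A share above that of the arm was thus not particular to pairs that join the 2 sides.

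All 5 of the highest pairs at 50 kb or more on the right arm of I, with 50 or more reads, joined the 2 sides. The highest was bin 4430001 (sfp1, a transcription factor, and dus3) with 4710001 (mug51 and mak1, a phosphorelay sensor kinase), at 2.06 times the mean at 280 kb (1.70 to 2.48, 111 reads). The same bin met 4870001 (grx1, glutaredoxin, and ceo5) at 1.95. Bin 4450001 (atd1 and rad26, a checkpoint gene) met 4780001 (pvg5 and arp2, an actin-related protein) at 1.85. Bin 4470001 (dhm2 and pex19) met 4690001 (aro1 and erf1, a translation release factor) at 1.84, and 4480001 (pnu1 and tim13) met 4950001 (vma3 and nan1) at 1.74. Bins 4430001 and 4950001 had low depth, with 30041 and 27159 reads. On the left arm of II the highest such pair was lower, 680001 (dps1 and knk1) with 1050001 (gtr1 and rpb4, an RNA polymerase II subunit) at 1.64 (1.23 to 2.14, 54 reads), and the next 4 had 1.55 to 1.59.

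Both arms were divided into domains of like size. An insulation score (log2 of mean contact across a bin within 50 kb on each side, over the mean of the arm) was taken, and a boundary was a minimum at least 0.1 below the higher maximum beside it. The right arm of I had 20 boundaries in 109 bins (18.3%) and the left arm of II 15 in 92 (16.3%), against 17.2% of all arm bins. The median depth was 0.25 on each arm and 0.25 over all arm boundaries, and the median spacing was 50 kb on I (20 to 120) and 60 kb on II (30 to 140). The members nearest the threshold were 4620001 of I (0.11) inside and 4170001 of I (0.08) outside.

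Contact between bins of 1 domain was higher than between bins of different domains at the same separation. At 40 kb the mean was 1453 ± 234 inside (SD, n = 23 pairs) and 1228 ± 142 across (SD, n = 49 pairs) on the right arm of I, a ratio of 1.18 (1.17 to 1.20). On the left arm of II it was 1518 ± 235 inside (SD, n = 23 pairs) and 1169 ± 128 across (SD, n = 37 pairs), a ratio of 1.30 (1.28 to 1.32). From 20 to 50 kb the ratio fell from 1.25 to 1.17 on I and lay between 1.15 and 1.30 on II. The boundaries were found in the same values, so these ratios describe their size and do not test them.

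Nearly every boundary bin held a pair of neighbouring genes whose 3′ ends face each other (a convergent pair). This was so for 20 of 20 boundaries on the right arm of I and 14 of 15 on the left arm of II, against 92.4% of all arm boundaries. Such pairs are common, since 77.2% of all arm bins hold one, and among the members that were not boundaries the share was 73.0% on I (65 of 89) and 77.9% on II (60 of 77). The boundary without one was 920001 of II (cwf11 and gta1), with a depth of 0.14. A and T content was 63.7% ± 1.44 in the 35 boundary bins (SD) and 63.7% ± 1.30 in the other 166 (SD).

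**Figure D4:**
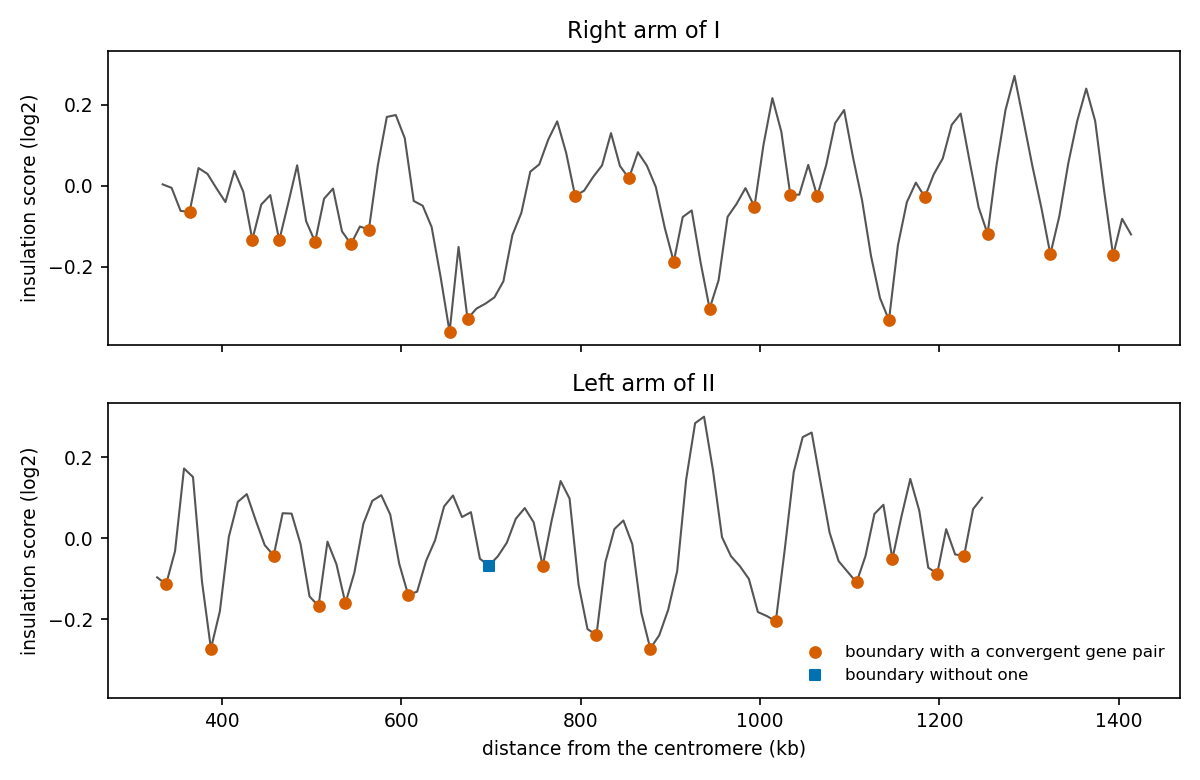
Insulation score (log2) of the member bins against distance from the centromere, with boundaries marked by whether the bin holds a convergent gene pair. The lowest scores are -0.36 on the right arm of I, at 654 kb, and -0.27 on the left arm of II, and 1 boundary on the left arm of II has no convergent pair.

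The deepest boundary of both arms was bin 740001 of II (depth 0.57, 23955 reads across it), where mdm35, a mitochondrial import gene, faces an uncharacterised gene over a gap of 1333 bases, and which also holds the tRNA-Ser gene shown above. Next on this arm came 600001 (0.51), with new14 facing rps1701, a ribosomal protein gene, and the tRNA-Lys gene, and 1230001 (0.45), with res1, a subunit of the MBF cell cycle transcription factor, facing rrn11, an RNA polymerase I factor. Bins 800001 (0.38, ntu2 and mrl1) and 510001 (0.37, cid11 and avt5) followed, and the second lies beside the blank bin.

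On the right arm of I the deepest was 4420001 (0.54), the member with the fewest reads, 12760. Bin 4910001 (0.52) has mae1, a malate transporter gene, facing npc2, a lipid transfer gene, and 4440001 (0.49) has sor1, the sororin that protects cohesin, facing a threonine synthase gene. Bin 5090001 (0.44) has win1, a stress MAP kinase kinase kinase, facing rpl3002, and 5160001 (0.41) has pyp1, a phosphatase of the same stress pathway, facing gyp51. The dips at 4420001 and 4440001 lie on the centromere side of the stretch that met the ends, and the domain from 4440001 to 4560001, which holds mei2, was the longest on the arm at 120 kb. The stretch itself contained the boundaries 4560001 (0.18) and 4620001 (0.11).

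tRNA genes lay in 4 of the 35 boundary bins and in 10 of the other 166, ribosomal protein genes in 6 and 11, long terminal repeats of retrotransposons in 4 and 19, and 5S rRNA genes in 0 and 7. Over all arm bins, tRNA genes lay in 26 of 184 boundary bins and in 71 of the other 884. Ribosomal protein genes lay there in 31 and 86, long terminal repeats in 25 and 123, and 5S rRNA genes in 5 and 29. The counts of the members are small and no test was made. Median contact with the other short arm was 0.985 to 1.08 times expectation in these lists, with wider spread among single bins. The median fold of tRNA gene bins was 1.05 on I (0.937 to 1.21, n = 5 bins) and 1.04 on II (0.859 to 1.14, n = 9 bins). That of 5S rRNA gene bins was 0.985 (0.972 to 0.998, n = 2 bins) and 1.02 (0.921 to 1.16, n = 5 bins). Ribosomal protein gene bins had 0.996 (0.813 to 1.10, n = 9 bins) and 1.08 (0.882 to 1.26, n = 8 bins). Bins with long terminal repeats had 0.996 (0.813 to 1.10, n = 13 bins) and 1.02 (0.860 to 1.17, n = 10 bins). The medians over all members were 0.974 and 0.994.

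Single members of the histone, meiotic, glycolytic and heat shock gene lists met the other short arm at 0.902 to 1.14 times expectation. The histone gene bin 4690001 (hhf1, H4, and hht1, H3) had 0.996 (0.942 to 1.05). Bin 4510001 with mei2 had 0.906 (0.854 to 0.960) and the ssm4 bin had 1.01 (0.945 to 1.07). The glycolytic genes gpm1 on I and gpd3 on II had 1.10 (1.04 to 1.16) and 1.14 (1.08 to 1.20), and the second bin of gpd3 had 1.09 (1.04 to 1.15). Against the running median of the bins within 100 kb these 3 bins had 1.01, 1.05 and 0.984, so they were close to their neighbours. Bins of hsf1, the heat shock transcription factor gene, had 1.03 and 1.07, that of sks2, a ribosome-associated chaperone gene, 1.04 (0.978 to 1.10), and those of num1, a dynein anchor gene, 0.902 and 0.926.

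Single pairs of bins between the short arms were compared with expectation one by one. Of 10028 pairs, 15 (0.150%) had 20 or more reads and at least 2 times expectation, against 0.303% of all inter-chromosomal pairs of arm bins. Without the correction 163 pairs passed, and with 10 or more reads 66, so the count depends on both settings. The pairs nearest the threshold had ratios of 2.01 inside and 1.99 outside. The highest of the 15 was bin 5120001 of I (mug108 and rga3) with 450001 of II (meu6 and clr4, the histone H3 lysine 9 methyltransferase gene), at 2.64 (1.63 to 4.03) on 21 reads, and the 3 by 3 bins around it averaged 1.49. The next were 5090001 (rpl3002 and atl1) with 560001 (tre1 and rsn1) at 2.42 and 4210001 (spt6, a transcription elongation factor, and has1) with 650001 (dsc1 and hsp3103) at 2.32. The other 7 of the 10 highest, after neighbours were merged, had 2.09 to 2.30 on 20 to 24 reads. Bin 5090001 came up again with 590001 (fzo1 and aly1), and 5140001 (mrps9 and aif1) with both 560001 and 610001 (its8 and ibp1). The rest were 4190001 (loz1 and ypf1) with 530001 (rps1902 and klp6), 4640001 (fnp1 and dml1) with 880001 (mim1 and tim16), 5130001 (srb6 and prp19) with 810001 (anc1 and mrl1), and 4250001 (aca1 and cyp8) with 600001 (new20 and rps1701). The lower interval bounds of all 10 lay between 1.30 and 1.63. The rule of 20 or more reads and 2 times expectation by itself sets such bounds above 1. The intervals also leave out that these were the highest of 10028 pairs, so the bounds are no support for any single pair.

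Most single bins varied little in contact with the other short arm. Against the running median of the bins within 100 kb, the ratio had an SD of 0.0845 on I and 0.0788 on II. The largest departure on I was a low one, 0.694 at 4420001, the member with the fewest reads (12760). The lowest on II was 0.827 at 1290001. The highest on I were 4450001 (atd1 and rad26, 1.23, interval 1.17 to 1.30), 5130001 (srb6 and prp19, 1.20) and 4640001 (fnp1 and dml1, 1.19), of which the last is the outer edge of the stretch that met the ends. On II they were 1260001 (rtn1, the reticulon gene, and dbl7, 1.22, interval 1.16 to 1.29), 840001 (mfs3 and cys11, 1.20) and 510001 (cti6 and rps29, 1.18).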

How the data were processed

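Hi-C of sap1-1 cells was read from 1 deposited map. Per the file headers, the authors iteratively corrected it with the diagonal kept, so its contact signal gives each 10 kb bin the same sum. Bowtie2 2.1.0 and ASM294v2 come from the submitters' processing notes. Whether replicates were pooled is not given in the sources used here. Whole reads were recovered per bin pair, with 100% of values within 0.05 of a whole number and 99.9% of the header's 37571192 reads. Arm bins lie 200 kb or more from an end and 100 kb from a centromere, the middle of the longest gene-free stretch. In insulation windows, pairs with a blank bin took the chromosome's mean at their separation. Named genes are the nearest to the middle of a bin (at most 2), or the convergent pair, at the 5 deepest boundaries, the 10 and 5 highest pairs and the 3 highest bins, plus list members. Members, lists and rules were chosen with earlier results of these data known; the stretch near mei2, and its genes, were chosen after its values were seen. Some items that this rule would name or show are not reported here. With 1 map no test was possible. Steps were tested on simulated data. Python 3.11.15, NumPy 2.4.6, SciPy 1.17.1 and matplotlib 3.10.9 were used.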

Additional observations from a re-analysis of the deposited data

How the results depend on the processing

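Of 62 alternatives over 10 results, 43 left the value inside its counting interval, within the SD of the 6 arms for exponents, or within 1.5 times a count. Without the correction, contact between the short arms was 1.01 times expectation, its ratios to the right arms and to the left arms 1.00 and 1.01, short-arm pairs at 2 times expectation 163, boundaries on the left arm of II 25, and bins of I at 2 times with the ends of II 7, all of them among the 14. The 3 contact values as medians of pair ratios were 0.966, 0.937 and 1.01. Pairs at 2 times were 66 with 10 or more reads, and 213 pairs reached 1.5 times. Boundaries on the right arm of I were 13 at a depth of 0.2, 13 with a window of 100 kb, and 12 by the lower flank, and boundaries with a convergent pair 22 with 100 kb. The exponent was -1.13 on each arm over 100 to 1000 kb (to 880 kb on II) and -1.16 on each over 20 to 100 kb. Of the 35 boundaries, 20 fell in the same bin and 33 within 1 bin without the correction, where 88.7% of 53 held a convergent pair. Windows of blank bins left out, mating-type bins left out and all end-contact alternatives were chosen after seeing the data. No paired analysis was possible because the values form 1 map. Depth limits single pairs between arms, at a median of 13 reads.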
